A study of Rattus norvegicus with 16 samples.

Results

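The regions described here are the N6-methyladenosine (m6A) peaks that the authors annotated to a stop codon in rat ovary. They were chosen by that annotation alone, without use of their enrichment. The peak list of the control group, labelled CON, held 7225 such peaks among 22316 (32.4%), in 7210 genes. The list of the group labelled VCD held 7079 among 21528 (32.9%), in 7062 genes. VCD stands for 4-vinylcyclohexene diepoxide, an industrial chemical that is known to kill primordial and primary follicles in rodents. The labels give 8 rats, 4 CON and 4 VCD, with whole ovary as the tissue and polyadenylated RNA as the molecule. They give no dose, age, strain, route or vehicle, and no genetic change. Each rat gave a library of RNA fragments pulled down with an m6A antibody (IP) and a library of the input fragments, 16 in all. The organism label is rat, whereas the series text speaks of mice. Coordinates are printed with starts counted from 1, where the files count from 0, and no usable genome build is named for them.

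Most m6A in mammalian mRNA is placed by the METTL3 and METTL14 methyltransferase complex at adenosines of a short consensus motif, and it is known to gather around the stop codon and in long last exons. FTO and ALKBH5 can remove the mark. Proteins of the YTH and IGF2BP families bind it and are known to change the decay, stability or translation of the transcript. In the oocyte, which stores mRNA and stays transcriptionally silent while it matures, m6A and its readers are known to be needed for the timed clearance of stored transcripts.

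The peaks of a group came from libraries the authors had pooled, 1 list per group, so an enrichment has no spread over rats and no test. Expression was available per rat, as FPKM (fragments per transcript length and mapped total) of 22663 genes in the 8 input libraries. Library sums lay between 403809 and 421628 FPKM, and the read depth is unknown, since FPKM keep no totals. Ovarian markers were present in every input library: Inha, a granulosa inhibin subunit, at 526.2 to 903 FPKM, and Star, the cholesterol carrier of steroid-making cells, at 2201 to 5563 FPKM. Alb, a liver gene, was listed at 0.0562 FPKM or less. Genes typed as ribosomal RNA summed to 8.17 to 25.0 FPKM in CON and 28.6 to 56.9 FPKM in VCD, and their part in the differences below was not tested.

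Stop codon peaks were the largest annotation class in both lists and carried the highest median enrichment of the 6 main classes. The median log2 enrichment of IP over input was 3.01 in CON (quartiles 2.28 and 3.72, range 1.03 to 8.05) and 3.11 in VCD (2.36 and 3.80, range 1.03 to 8.40), which is 8.06-fold and 8.63-fold. Peaks of the 3' untranslated region (UTR) had medians of 1.79 in CON and 1.88 in VCD. Exonic peaks had 2.16 and 2.27, start codon peaks 2.04 and 2.09, and 5' UTR peaks 1.90 and 1.96. Peaks in exons of noncoding RNAs lay closest, at 2.78 and 2.66. The quartile range of the stop codon class overlapped those of all these classes except the 5' UTR class in VCD, and no replicate peaks exist to test the gaps. A log2 enrichment of at least 3 was reached by 50.4% of stop codon peaks in CON and 53.7% in VCD. At least 4 was reached by 1099 and 1268 peaks, and at least 5 by 79 and 72.

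**Figure D1:**
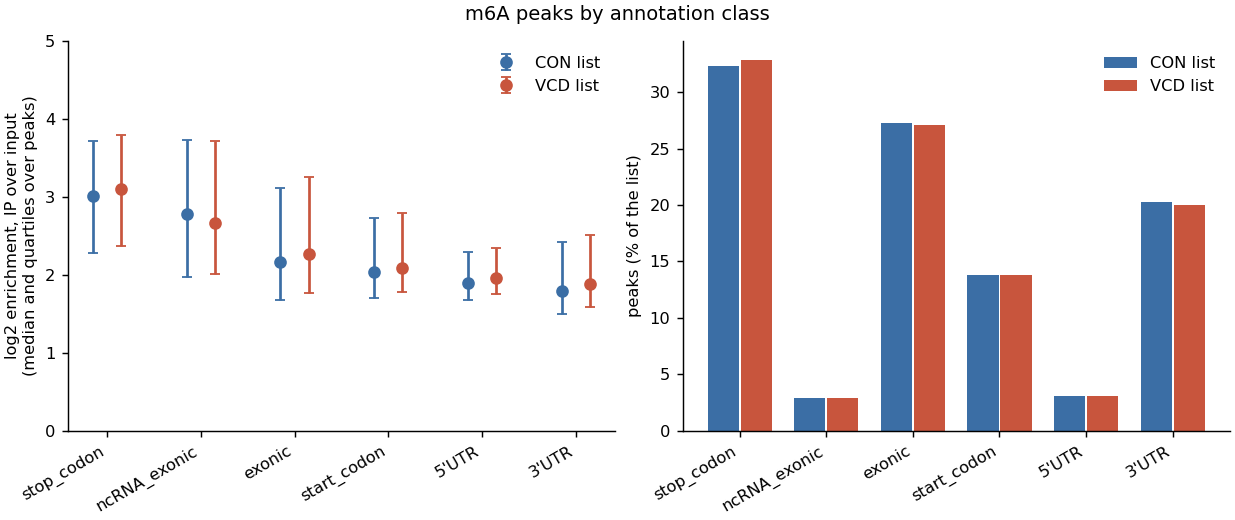
The left panel shows the median log2 enrichment of IP over input per annotation class, with bars to the quartiles over peaks, and the right panel the share of each list in percent, for the pooled CON (blue) and VCD (red) lists. Stop codon peaks stand highest in both panels, with medians of 3.01 and 3.11 and shares of 32.4% and 32.9%.

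The stop codon share changed along the ranking by enrichment. Among the 100 most enriched peaks of all classes, 22 in CON and 19 in VCD were stop codon peaks. Among the first 1000 they numbered 503 and 499. The stop codon class was therefore rarer at the very top of the ranking than in the whole list, and more common just below the top.

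Stop codon peaks were wide on the genome, and a small majority neared, reached or passed the 3' end of the gene. The median span from start to end, introns included, was 2559 bases in CON and 2538 in VCD, with quartiles of 900 and 7348 and of 900 and 7278. Widths ran from 100 to 389229 bases in CON and from 100 to 505416 in VCD. The files give no exon blocks, so how much of a span is intron was not measured. By comparison, 3' UTR peaks had a median span of 325 bases in both lists, and start codon peaks one of 6512 and 6456 bases. The 3' edge of 51.6% of CON and 52.0% of VCD stop codon peaks reached to within 25 bases of the 3' end of the annotated gene or ran past it. The median distance was 9 bases in CON, with edges past the gene end counted as negative. Peaks that reached to within 25 bases of both gene ends, or past them, made up 6.41% and 6.64%. For those the stop codon is only 1 of several annotated features inside the peak.

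Wider peaks were more enriched. Peaks of up to 1000 bases, 27.2% of the class in CON and 27.3% in VCD, had a median log2 enrichment of 2.29 and 2.35. Peaks of over 10000 bases, 19.1% and 19.0%, had 3.37 and 3.47. The widest peak of CON lay over Foxn3, a forkhead transcription factor gene, at chr6:123188451-123577679 on the minus strand (389229 bases, log2 4.53). The widest of VCD was assigned to Gpr50, an orphan receptor gene related to the melatonin receptors, at chr17:36451058-36956473 (505416 bases, log2 1.97). That peak reached far past the annotated 3' end of the gene, and Gpr50 had a mean of only 0.0677 FPKM. A second peak of the class was present in 15 genes of CON and 17 of VCD. In Notch2, a receptor that signals between oocyte and granulosa cells, CON listed a peak of 100 bases at log2 2.03 and another of 3175 bases at 3.86. The first ended 132259 bases from the 3' end of the gene and the second 1161 bases from it.

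The most enriched stop codon peaks of expressed genes overlapped in part between the 2 lists, with 5 genes among the first 10 of both. Among genes with a symbol and a mean of at least 1 FPKM, LOC679739 ranked first in CON, at log2 6.89. It was followed by Faim (5.56), an inhibitor of FAS-triggered apoptosis, and by Cebpd (5.45), a transcription factor of the C/EBP family. The zinc finger gene Zfp503 (5.44), the purine-rich element binding protein gene Purg (5.30) and the ETS factor gene Fli1 (5.29) came next. The other 4 of the first 10 were Mrpl41 (5.26), a mitochondrial ribosome gene, Chst12 (5.26), a chondroitin sulfotransferase, H2ax (5.25), the histone phosphorylated at DNA breaks, and Zfp703 (5.24). In VCD, LOC100361913 ranked first at 6.40 and Tma7, a small translation-associated protein gene, second at 5.78. Ubxn10 (5.40), Itpripl1 (5.39), Fli1 (5.38), Zfp503 (5.37), Chst12 (5.35), Cebpd (5.35), Trib1 (5.34) and Purg (5.29) completed the first 10. Ubxn10 passed the floor of 1 FPKM only through its CON libraries. It was listed at 0.0901 to 4.94 FPKM in CON and 0.0686 to 0.686 FPKM in VCD, so its VCD value rests on low input RNA.

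Genes that ranked among the first in both lists had nearly the same values in each, which choosing them by rank in both lists favours. The Cebpd peak at chr11:89008008-89009146 had 5.45 in CON and 5.35 in VCD over identical coordinates. Zfp503, at chr15:2375082-2378369, had 5.44 and 5.37, and Purg, at chr16:62481760-62483059, had 5.30 and 5.29. Input RNA of Cebpd was 9.92 to 11.1 FPKM in the CON libraries and 16.5 to 27.9 FPKM in the VCD libraries, with no overlap (limma adjusted p = 0.0631). The peak of LOC679739 was listed in CON alone and that of Tma7 in VCD alone. Of the genes leading in VCD only, LOC100361913 had 3.25 in CON beside 6.40 in VCD, and Ubxn10 had 4.19 beside 5.40. Itpripl1 had 5.03 in CON beside 5.39 in VCD, and Trib1 5.09 beside 5.34.

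A stop codon peak was most often listed for genes of middling expression. When genes were cut into 10 groups of equal size by mean FPKM, a peak was listed in CON for 0.728% of group 1, the lowest, 34.2% of group 3, 56.3% of group 7 and 35.6% of group 10. The VCD shares were 0.672%, 30.3%, 56.4% and 35.2%. From group 2 to group 10 the median log2 enrichment went from 4.09 down to 2.48 in CON and from 4.08 to 2.57 in VCD. Group 1, with few peaks, stood at 3.12 and 3.26. Of 12405 protein-coding genes whose mean was 1 FPKM or more, 49.7% had a stop codon peak in CON and 49.4% in VCD. Across these host genes the rank correlation between enrichment and FPKM was -0.211 in CON and -0.209 in VCD (Spearman, 6164 and 6132 genes). The correlation is a description across genes that share their libraries, and FPKM enters the input side of both values.

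**Figure D2:**
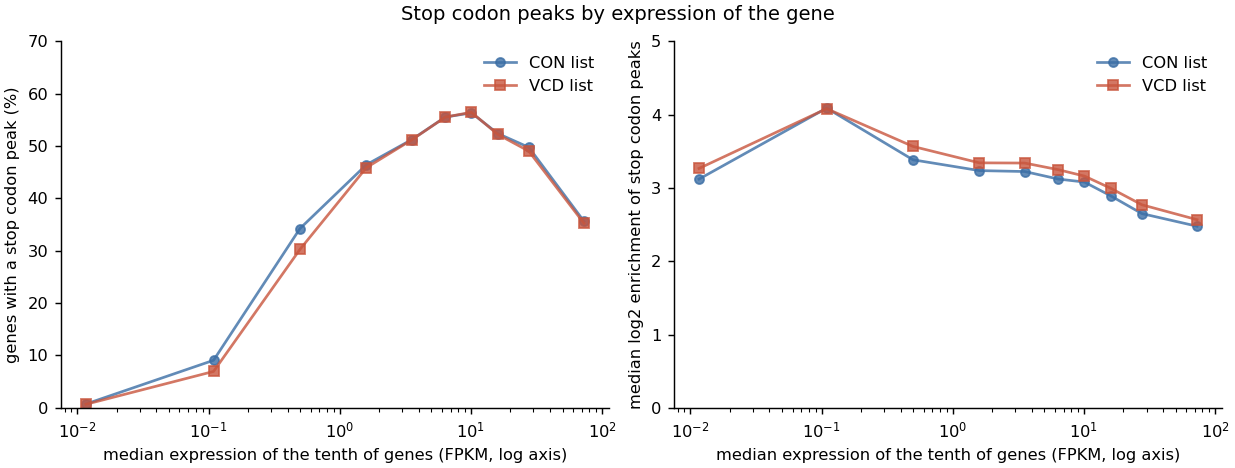
Genes are cut into 10 groups of equal size by mean FPKM over the 8 input libraries (log x axis, median of each group). The left panel gives the percent of genes with a stop codon peak, which peaks at 56.3% in CON and 56.4% in VCD in group 7, and the right panel the median log2 enrichment of those peaks.

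Over 5 groups of the coding genes at 1 FPKM or more by genomic span, the share with a CON peak was 42.6% among the shortest, lay between 48.9% and 52.7% in the next 3 and was 53% among the longest. Chromosome X held a smaller stop codon share among its peaks, 25.9% in CON and 25.5% in VCD, and no other peaks of the gene were listed for 46.5% and 47.6% of host genes. Start codon peaks accompanied the stop codon peak in 22.7% of CON host genes, 3' UTR peaks in 20.6% and exonic peaks in 19.1%. In VCD these shares were 22.8%, 19.3% and 19.1%.

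Gene families named by a common symbol stem differed in how often they carried a peak. Of 16 such families with at least 40 expressed coding members, the Zfp zinc finger genes had the highest share in CON, 142 of 222 genes (64.0%), at a median log2 enrichment of 3.72. Ccdc genes followed with 63.0% and Ppp phosphatase genes with 61.8%. The Rpl and Rps stems lay at the other end, with 28.8% of Rpl symbols at a median of 1.74 and 17.5% of Rps symbols at 2.89. The Rps stem also takes in symbols such as Rps6kb1, which is not a ribosomal protein gene. Its values therefore do not describe ribosomal protein genes alone. Eif translation initiation factor genes had 31.9%. The families differ in expression too, with a median of 5.00 FPKM in the Zfp genes, 423.9 FPKM in the Rpl genes and 375.3 FPKM in the Rps genes.

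Over all coding genes at 1 FPKM or more, counted by symbol, 49.9% had a stop codon peak in CON and 49.7% in VCD, and the lists of developmental signalling and transcription factor genes had larger shares. In the TGF-beta, BMP and activin list, the pathway through which oocyte and granulosa factors act on follicles, 16 of 19 expressed genes (84.2%) had a peak in each group, at median log2 values of 3.18 and 3.22. The receptor genes Acvr1 (4.18 in CON, 4.22 in VCD), Acvr2a (3.81 and 3.93) and Bmpr1b (3.72 and 3.94) were among the most enriched. So was Smad3 (3.94 and 3.94), which carries the signal to the nucleus. Smad4, the shared partner of the receptor SMADs, had 1.60 and 1.87 in a peak of 325 bases at the same coordinates. The list of gonadal transcription factors also reached 16 of 19 in each group, at medians of 3.55 and 3.55. Its leading members were Emx2 (4.79 and 4.70), needed for gonad formation in mice, Nr2f2 (4.46 and 4.49), an orphan receptor of ovarian stroma and theca, Sox9 (4.28 and 3.81, below 1 FPKM) and Nr2f1 (4.11 and 4.28). No test of these shares was run, and the lists are small.

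Short-lived response genes had the highest median enrichment of any list. Of 20 immediate-early genes, 15 had a stop codon peak in CON and 16 in VCD, at median log2 values of 4.27 and 4.11 against 2.97 and 3.07 over all expressed coding genes. Jund, a member of the AP-1 factor family, had 5.09 and 5.00, and Egr2, a zinc finger factor, 4.85 and 4.78. Dusp1, a MAP kinase phosphatase, had 4.60 and 4.61, and Jun 4.45 and 4.75. Fosb, another AP-1 gene, was listed in VCD alone, at 3.61. Of the expressed p53 and growth arrest genes, 10 of 13 had a peak in CON and 9 in VCD. Sesn2 (4.19 and 4.29), a stress-induced regulator of mTOR signalling, Gadd45a (3.52 and 3.64), Phlda3 (3.51 and 3.58) and Mdm2 (3.44 and 3.67), the ligase that turns over p53, led that list. Cdkn1a, the p53-induced cell cycle inhibitor, was listed in CON alone at 1.63.

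In the KIT, PI3K and FOXO list, the pathway that holds or releases primordial follicles, 13 of 17 genes had a peak in each group. Foxo1 had 4.85 in CON and 4.93 in VCD, Foxo3, which keeps primordial follicles dormant in mice, 4.31 and 4.35, Rps6kb1 4.15 and 4.30, and Irs1 4.15 and 4.38. Circadian clock genes numbered 12 of 16 in each group. Bhlhe40 (4.16 and 4.16), Rora (4.12 and 4.31), Nfil3 (4.10 and 4.32) and Nr1d2 (3.51 and 3.62) were the most enriched of them. Of 21 kinetochore, spindle and checkpoint genes, 11 had a peak in each group. The most enriched were Sgo1 (4.17, in CON alone, below 1 FPKM) and Sgo2 (3.80 and 4.09), which protect centromeric cohesion, Cenpf (3.92 and 4.04) and Tpx2 (3.74 and 3.79). Of 17 genes of double-strand break and crosslink repair, 9 had a peak in CON and 10 in VCD. These included H2ax (5.25 and 5.26), Lig4 (4.29 and 4.45) and Xrcc6 (3.41 and 3.26). Brca2, below 1 FPKM, had 3.71 and 3.73.

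The cell type lists were read in the same way, without a test. Of 10 oocyte genes whose mean over all libraries was 1 FPKM or more, 4 had a peak in CON and 2 in VCD, and some of the 10 passed that floor only through their CON libraries. Of 19 expressed granulosa genes, 13 had a peak in each group. Fshr, the receptor for follicle-stimulating hormone, had 4.59 and 4.74, Ihh, a hedgehog ligand sent to theca cells, 4.55 and 4.64, Inhbb 4.16 and 4.24 and Inhba 3.81 and 3.76. Of 17 theca, luteal and steroid synthesis genes, 7 had a peak in CON and 8 in VCD. Ptgfr, the prostaglandin receptor of luteal regression, had 3.44 and 3.53, Gli1 3.35 and 3.49 and Star 2.61 and 2.70. Macrophage and complement genes reached 8 of 11 in each group, led by Cx3cr1 (4.41 and 4.52) and Csf1r (4.13 and 4.16). Stromal genes reached 7 of 12, led by Pdgfrb (4.19 and 4.24) and Fbn1 (3.82 and 3.87). Endothelial genes reached 6 of 12, led by Eng (4.43 and 4.45) and Sox17 (4.00 and 4.02), and smooth muscle genes 5 of 10, led by Lmod1 (4.15 and 4.29).

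The lists of ribosomal protein, respiratory chain and antioxidant genes had smaller shares than the coding genes at large. Their median expression was high, at 566.2, 126.3 and 60.6 FPKM, and its part in these shares was not tested. In the highest of the 10 expression groups, 35.6% of genes in CON and 35.2% in VCD had a peak. Of 37 cytosolic ribosomal protein genes, 8 had one in CON and 7 in VCD, at medians of 1.44 and 1.59, and Rpl35 led with 2.64 and 2.82. Of 30 nuclear-coded genes of oxidative phosphorylation, 9 and 8 had one, at 2.00 and 2.05. Atp5f1c (4.44 and 4.45) and Uqcrb (3.75 and 3.77) stood well above that median. Of 14 genes of the NRF2 antioxidant response, 3 had a peak in each group. These were Keap1 (3.93 and 4.00), the sensor, Nfe2l2 (3.50 and 3.56), the NRF2 factor itself, and Gclc (2.03 and 2.04), which starts glutathione synthesis. Of 11 genes of epoxide and xenobiotic metabolism, the route by which VCD is detoxified, 4 had a peak in each group, and Ahr led with 4.26 and 4.27. The remaining lists lay between. Apoptosis genes had 7 of 11 in each group, with Bmf (4.47 and 4.51) first, and histone lysine methyltransferase and demethylase genes 12 and 13 of 22, with Ehmt1 (4.20 and 4.27) first.

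**Figure D3:**
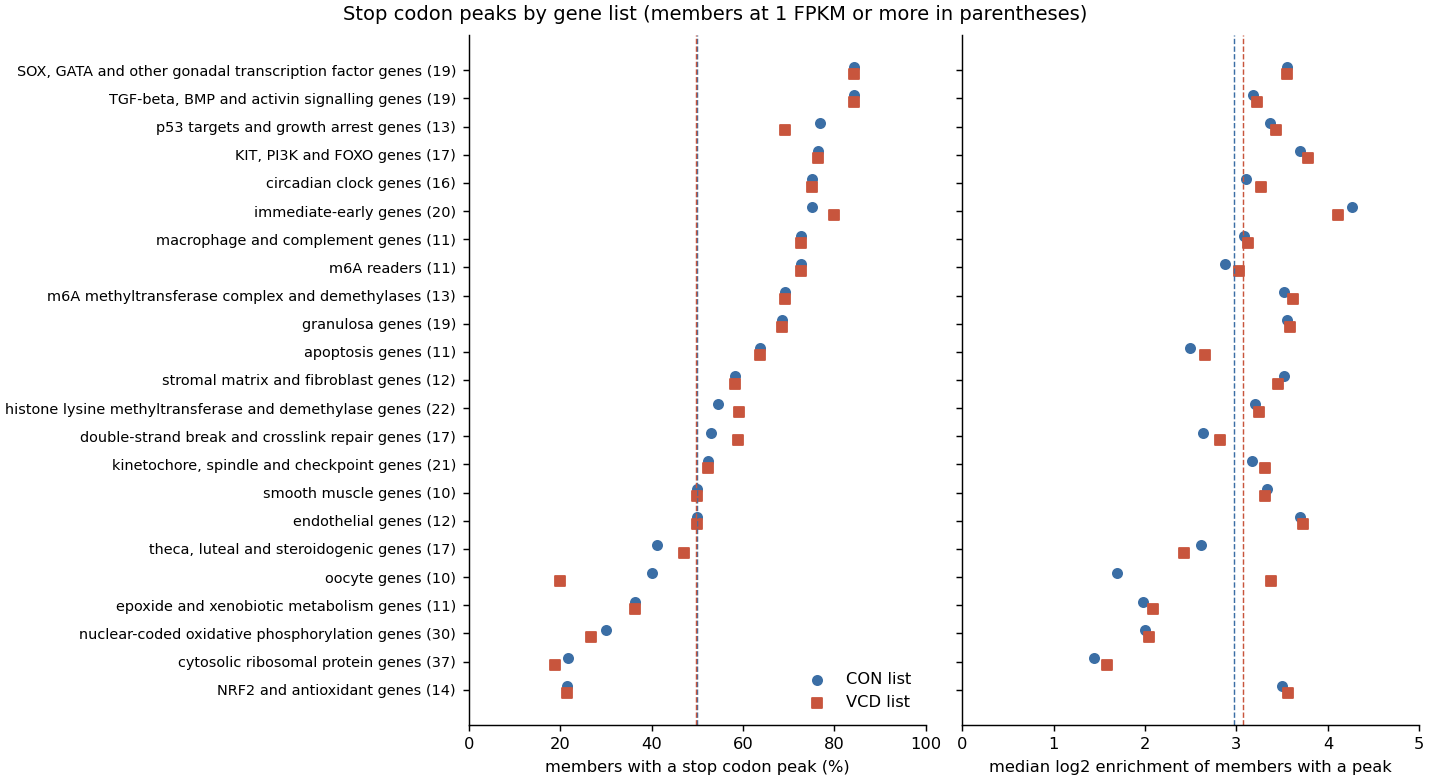
For each gene list, with the number of members at a mean of 1 FPKM or more in parentheses, the left panel gives the percent with a stop codon peak and the right panel their median log2 enrichment, in the CON (blue circles) and VCD (red squares) lists; dashed lines mark all expressed coding genes (49.9% and 49.7%, 2.97 and 3.07). Immediate-early genes stand highest in enrichment, and ribosomal protein genes lowest.

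The transcripts of the m6A machinery carried stop codon peaks themselves. Of 13 genes of the methyltransferase complex and the demethylases, 9 had a peak in each group. Cbll1, which codes for HAKAI, had 4.52 and 4.46, Rbm15 4.26 and 4.36, Zc3h13 3.84 and 3.87, and Wtap, the scaffold of the complex, 3.76 and 3.87. Of 11 expressed readers, 8 had a peak in each group, with Ythdf3 at 4.27 and 4.30, Ythdf2 at 4.25 and 4.31, Ythdf1 at 3.80 and 3.93 and Rbmx at 3.18 and 3.24. Mettl3, the catalytic subunit, had a weaker peak, 1.68 in CON over chr15:28710300-28711627 and 1.64 in VCD over 150 bases from the same start coordinate. Its start codon peak was stronger in both lists, at 2.34 and 2.37.

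Among the 7 genes that the series text names, Mettl3, Alkbh5 and Bub1 carried a stop codon peak. The Alkbh5 peak was listed at log2 1.91 in CON, over chr10:46906740-46927430, and at 2.37 in VCD. The VCD peak was longer, starting at 46906115, where CON listed a separate start codon peak. In the authors' deposited table, compared over the longer span, Alkbh5 had 2.18 in CON and 2.36 in VCD, a difference of 0.18 (adjusted p = 0.0204). The Bub1 peak at the minus strand of chr3 started from 120374329 in both lists and was 450 bases wide at 2.54 in CON and 2154 bases wide at 2.79 in VCD. Bub1, a spindle checkpoint kinase, had 2.37 in CON and 3.12 in VCD in the authors' deposited table (difference 0.75, adjusted p = 0.0406). Fto and Cenpa had peaks of other classes and none at the stop codon. For Polq and Igf2bp3 no stop codon peak was listed either, and their means were 0.231 and 0.122 FPKM. Polq had exonic peaks in CON, the strongest at log2 4.17, and no listed peak in VCD.

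Input RNA of Mettl3, Alkbh5 and Bub1 did not pass the limma test. Mettl3 had 30.0, 31.8, 32.3 and 36.1 FPKM in CON and 31.1, 32.1, 33.8 and 35.1 FPKM in VCD, and the groups overlapped throughout. Alkbh5 had 19.6 to 20.8 FPKM in CON and 19.0 to 22.5 FPKM in VCD. Bub1 had 2.80, 3.08, 3.72 and 4.36 FPKM in CON and 0.734, 1.06, 1.54 and 1.77 FPKM in VCD, with every VCD library below every CON library. Its log2 change of -0.99 (SE 0.172) had a limma adjusted p of 0.0522, and 0.0479 when the replicate number was a block.

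Stop codon peaks with the same coordinates and strand in both lists numbered 2475, which is 34.3% of the CON class and 35% of the VCD class. Over all annotations the shares were 27.0% and 28.0% (6028 peaks). The median VCD minus CON difference in log2 enrichment was 0.073 (quartiles 0.0033 and 0.141, SD over peaks 0.155), and it was 0.068 over all shared peaks and 0.062 over those of other classes. VCD was higher for 1879 stop codon peaks (75.9%), beside 71.2% of all shared peaks. The 3' UTR class had a median difference of 0.030, the exonic class 0.085 and the start codon class 0.081. The stop codon class thus followed the small general excess of VCD. Subtracting the median of all shared peaks left a median of 0.0049.

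**Figure D4:**
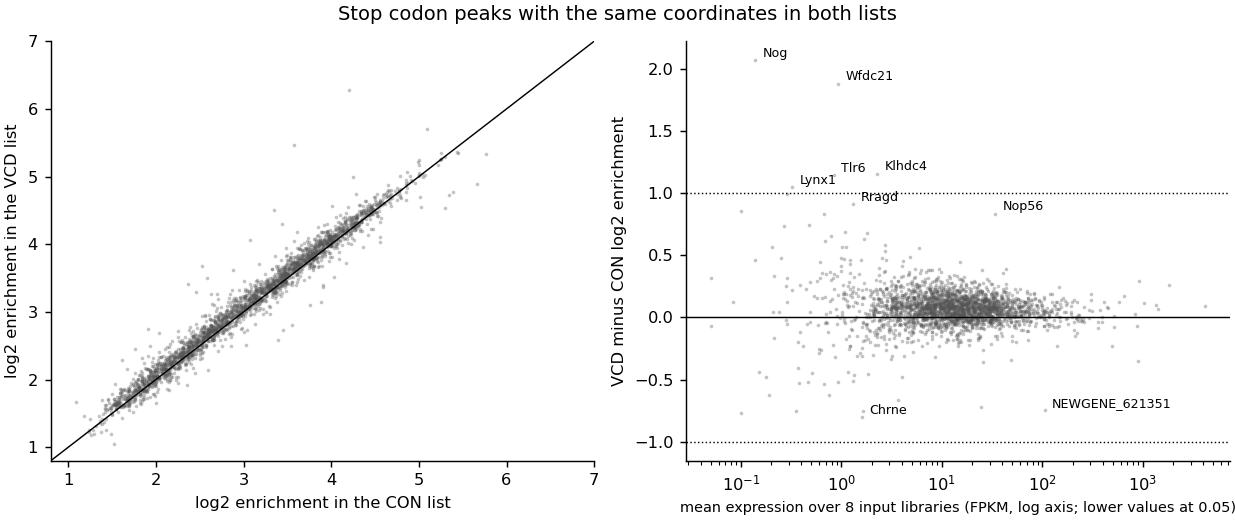
Each point is 1 of the 2475 stop codon peaks with the same coordinates in both lists. The left panel sets the VCD against the CON log2 enrichment, with the line of equality, and the right panel the difference against the mean FPKM of the gene (log axis), where the scatter widens below 1 FPKM.

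The difference between the lists depended on the expression of the gene more in its scatter than in its centre. Shared peaks of genes under 1 FPKM (85 peaks) had an SD of 0.493 over peaks, those from 1 to 5 FPKM (449 peaks) 0.193, those from 5 to 20 FPKM (1110 peaks) 0.107 and those of 20 FPKM and over (831 peaks) 0.103. Their median differences were 0.131, 0.079, 0.078 and 0.063. Wide peaks were higher in VCD more often: 68.0% of peaks up to 1000 bases, 77.8% of those over 1000 and up to 10000 bases and 82.8% of those above. Enrichments of the same peak in CON and VCD correlated at 0.984 across shared stop codon peaks, which are not replicates and share their gene's sequence.

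An absolute difference of at least 1 was reached by 5 shared stop codon peaks, all higher in VCD, beside 0.348% of all shared peaks at least 1 higher and 0.282% at least 1 lower. Nog, a secreted BMP antagonist, had 4.21 in CON and 6.28 in VCD, a difference of 2.07, at chr10:76812209-76812583. Wfdc21 had 3.58 and 5.46 (1.88), Klhdc4 3.35 and 4.50 (1.16), Tlr6, a bacterial lipopeptide receptor, 2.53 and 3.67 (1.15) and Lynx1, a modulator of nicotinic receptors, 2.36 and 3.41 (1.05). All but Klhdc4 had a mean under 1 FPKM, from 0.138 FPKM for Nog to 0.923 FPKM for Wfdc21. Klhdc4 was listed at 0 FPKM in 3 CON and 2 VCD libraries, with 6.05 FPKM in the remaining CON library and 5.43 and 6.71 FPKM in the other VCD libraries. The 5 peaks therefore rest on low or intermittently listed input RNA.

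At a mean of 1 FPKM or more, Nop56 was the best expressed of those with a large positive difference. Its product is a core protein of the small nucleolar particles that methylate ribosomal RNA. Its peak of 1164 bases at chr3:122807389-122808552 had 2.46 in CON and 3.30 in VCD, a difference of 0.84. In the authors' deposited table the Nop56 difference was also 0.84 (adjusted p = 1.16e-36). Nop56 input RNA was 33.8, 37.6, 39.1 and 39.6 FPKM in CON and 27.3, 28.2, 29.2 and 35.9 FPKM in VCD, and 1 VCD library lay above the lowest CON library. Its log2 change in input was -0.31 (SE 0.0975, limma adjusted p = 0.145). Rragd, a GTPase that recruits mTOR complexes to lysosomes, had 2.59 and 3.50 (0.91). Xiap, an inhibitor of caspases, had 1.09 and 1.67 (0.58), and Mpzl3 had 1.94 and 2.50 (0.56). Comp (0.69), Prx (0.68), AABR07045485.1 (0.63), Ccsap (0.57) and Tmem267 (0.56) made up the rest of the 10 largest, with Klhdc4 first. Input RNA of Xiap was 3.05 to 3.91 FPKM in CON and 1.55 to 2.15 FPKM in VCD. That of Ccsap was 1.18 to 1.56 FPKM and 0.814 to 0.993 FPKM. In the rest of the 10 the groups overlapped in input RNA. Enrichment is measured over this input, and the part of input in these differences was not tested.

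The largest negative differences were smaller. Chrne, the epsilon subunit of the muscle acetylcholine receptor, had 3.39 in CON and 2.59 in VCD (-0.80), and Doc2g 3.55 and 2.80 (-0.75). NEWGENE_621351, a well expressed gene at a mean of 106.0 FPKM, had 3.89 and 3.14 (-0.75) over chr4:31567534-31569151. In the authors' deposited table the NEWGENE_621351 difference was -0.74 (adjusted p = 1.14e-07). NEWGENE_1310561 (-0.72), the metallothionein gene Mt1m (-0.67), Degs2 (-0.51), St3gal6 (-0.48), Samd4a (-0.46), Chac1 (-0.46) and Dscc1 (-0.44) followed. Chac1 breaks down glutathione, and its peak had 4.56 in CON and 4.10 in VCD.

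Most stop codon peaks without the same coordinates still overlapped. When 1 base in common on a strand was enough, 6758 peaks of each list met a partner, 93.5% of CON and 95.5% of VCD, and with a reciprocal overlap of 50% 6064 did. Of 6763 overlapping pairs in the same gene, 2475 had both edges in common, 2305 the 3' edge only, 832 the 5' edge only and 1151 neither. An edge that differed had moved by a median of 50 bases at the 3' side and 75 bases at the 5' side, which is 2 and 3 steps of the 25-base grid visible in the files. The CON peak was the wider in 2376 pairs and the VCD peak in 1837. Over all overlapping pairs the median difference was 0.079, and 45 peaks were at least 1 higher in VCD and 20 at least 1 lower.

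The authors' own comparison of peaks covers merged spans and gives the only test of an m6A difference. Which spread its p-values measure is not stated, so none of those printed here can be read as a test over rats. The authors' deposited table listed 2198 stop codon peaks among 5533 (39.7%), of which 1967 were higher in VCD (89.5%) and 231 lower, and 2197 had a p under 0.05, beside 25.8% of all 21467 peaks that its adjusted p-values imply were tested (21.3% higher and 4.42% lower). At an adjusted p under 0.05 the authors' deposited table held 1175 stop codon peaks, 1086 higher and 89 lower, beside 11.1% of all tested peaks higher and 1.77% lower. How many stop codon peaks were tested is not given, so no share of the class can be set against these backgrounds. The differences were small: the median in the authors' deposited table was 0.167 for stop codon peaks and 0.220 for listed peaks of other annotations. An absolute log2 difference of at least 1 was met by 60 stop codon peaks of the authors' deposited table (42 higher, 18 lower). That is 2.73% of those listed, against 11.1% of the listed peaks of other annotations and 7.79% of all listed peaks. Of all tested peaks 1.98% met it with a p under 0.05, a share on another base that cannot be set against the 2.73%. Of the 2475 shared peaks, 787 were in the authors' deposited table, 726 of them higher and 61 lower. The direction matched that between the lists in all 787, as both come from the same libraries.

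The largest tested differences often went with a peak that was split, merged or absent in 1 list. Rmnd5b, a subunit of the GID ubiquitin ligase, had 1.56 in CON and 5.04 in VCD in the authors' deposited table (adjusted p = 1.53e-25). In the lists, the Rmnd5b peak of CON was 125 bases wide at 2.88, with a 3' UTR peak beside it, and that of VCD 1976 bases wide at 5.07. Tma7 had 2.46 and 5.76 in the authors' deposited table (adjusted p = 5.05e-154), and CON listed no Tma7 peak of any class. Zkscan2, at a mean of 0.099 FPKM, had 4.28 and 7.88 in the authors' deposited table (adjusted p = 0.0134), while Pla2g10 had 0.93 and 3.30 and Rfxapl1 1.57 and 3.74. Faim was the largest fall, with 5.60 in CON and 2.32 in VCD in the authors' deposited table (difference -3.28, adjusted p = 1.61e-34). Faim input RNA lay at 11.7 to 13.4 FPKM in CON and 8.76 to 14.1 FPKM in VCD, so the groups overlapped in level. A second gene entry with the symbol Faim, at a mean of 10.1 FPKM, had an exonic peak at 2.87 in VCD alone. Capsl (-2.06), Hist1h2bd (-2.01), Nol8 (-1.67) and Acsm3 (-1.39) were the next largest falls in the authors' deposited table. Nol8 also had a second gene entry, whose exonic peak was at 2.22 in CON and 3.08 in VCD.

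Within the gene lists, the authors' deposited table held more stop codon peaks with a higher value in VCD than with a lower one in most cases, as it did overall. Clock genes stood at 9 higher and none lower in the authors' deposited table, 6 of them at an adjusted p under 0.05. All 6 clock peaks with shared coordinates were higher in VCD, at a median difference of 0.206 beside 0.073 over coding genes. Nr1d1, a clock repressor that binds haem, had 2.56 and 2.95 (0.39), Nfil3 4.10 and 4.32 (0.22), Per1 3.00 and 3.22 (0.21), Per3 2.02 and 2.22 (0.20), Tef 2.61 and 2.73 (0.12) and Dbp 2.82 and 2.93 (0.11). Ribosomal protein genes stood at 7 higher and none lower in the authors' deposited table, all with an adjusted p under 0.05. Immediate-early genes were divided, at 6 higher and 2 lower in the authors' deposited table. The gonadal transcription factor genes had 10 shared peaks with a median difference of -0.0053, 5 of them higher in VCD.

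A stop codon peak was listed in both groups for 6745 genes, 93.6% of the CON and 95.5% of the VCD host genes. It was listed in CON alone for 465 genes and in VCD alone for 317. Of the 465, 234 had in VCD an overlapping peak of another class, mostly 3' UTR (164 genes) or exonic (68), and 156 had no VCD peak at all. Of the 317, 177 had an overlapping CON peak of another class and 82 had no CON peak. These genes were weakly expressed, at a median of 1.47 FPKM for CON alone and 3.97 FPKM for VCD alone, against 8.44 FPKM for genes in both lists. Their peaks were also less enriched, at medians of 2.17 and 2.05. Brca1 (1.67), Atp5pb (1.51), Rpl13a (1.71) and Postn (2.40) were of the first kind. Xrcc5 (1.75), Setd2 (1.69) and Mfap5 (1.59) were of the second.

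Fewer oocyte genes had a listed stop codon peak in VCD, where the summed RNA of the list was lower too. Of 24 oocyte genes, 7 had a peak in CON and 3 of those were also listed in VCD. Gdf9, a growth factor that the oocyte sends to granulosa cells, had 4.17 in CON over 3949 bases and 3.93 in VCD over 3749 bases. Zar1, a maternal RNA-binding protein gene, had 3.44 and 3.27. Ooep, of the subcortical maternal complex, had 1.43 in CON and 2.82 in VCD, and in the authors' deposited table the Ooep difference was 1.32 (adjusted p = 2.28e-06). Bmp15 (3.72), Btg4 (3.47), Tle6 (1.57) and H1f8 (1.81) were listed in CON alone. Bmp15 is the partner factor of Gdf9, Btg4 is an adaptor of maternal mRNA deadenylation, and H1f8 is the oocyte linker histone. Input RNA of Bmp15 was 0.655 to 1.68 FPKM in CON and 0.222 to 0.317 FPKM in VCD, and that of Btg4 0.386 to 0.742 FPKM and 0 to 0.218 FPKM. The oocyte list as a whole summed to 54.2 to 80.6 FPKM in the CON libraries and 17.2 to 24.5 FPKM in the VCD libraries. No oocyte gene was at 0 in all VCD libraries. In whole ovary, fewer oocytes and less RNA per oocyte cannot be told apart.

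Input RNA of the host genes was compared between the groups over the 8 rats. Of 7003 tested genes with a stop codon peak in either list, limma called 35 with a Benjamini-Hochberg adjusted p under 0.05 (0.500%), of which 8 rose and 27 fell in VCD. Over all 14978 tested genes 0.447% were called, 0.107% higher and 0.34% lower. The host share was thus close to that of all genes. In all 35 called host genes the groups did not overlap. Since limma picked them on the same values, the gap is no separate support for any of them. How many of all tested genes have groups that do not overlap was not counted. At an unadjusted p under 0.05, 1396 host genes (19.9%) and 2801 of all genes (18.7%) passed. The median log2 change on the log2(FPKM + 1) scale was -0.067 for host genes and -0.063 for all. With the replicate number as a block, 14 host genes were called, of which 9 were among the 35. A floor of 5 FPKM on the mean left 2 called host genes. When 1 library was left out, the count was 6 without CON 1 or CON 3, 7 without VCD 4, 8 without CON 2, 11 without VCD 2 and 69 without VCD 3. Only Errfi1, Per1, Gdf9, Ooep and H1f8 were called whichever library was left out. Scaling the libraries to a common median gave 13 higher and 18 lower in place of 8 and 27.

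Of the 8 host genes that rose, Errfi1, Nr4a3 and Per1 passed with the replicate block too. Errfi1, an inhibitor of the EGF receptor, had 18.7, 19.1, 19.7 and 23.8 FPKM in CON and 43.5, 55.0, 59.1 and 68.1 FPKM in VCD. The lowest VCD library lay well above the highest CON library. Errfi1 rose by 1.42 on the log2 scale (SE 0.135, adjusted p = 0.00493). Its stop codon peak had 3.55 in CON and 3.74 in VCD, and the authors' deposited table gave the Errfi1 difference as 0.18 (adjusted p = 5.63e-09). Per1, a core clock gene, had 21.0, 22.7, 23.7 and 25.2 FPKM in CON and 38.1, 38.6, 42.2 and 43.7 FPKM in VCD, again without overlap. It rose by 0.79 (SE 0.0794, adjusted p = 0.00493). Nr4a3, an orphan nuclear receptor induced by gonadotropins, had 0.697, 0.751, 0.965 and 1.28 FPKM in CON and 2.88, 3.47, 4.30 and 5.04 FPKM in VCD. It rose by 1.34 (SE 0.159, adjusted p = 0.0126), and its peak was at 2.83 in both lists. Leaving out CON 3 gave Nr4a3 an adjusted p of 0.0518.

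The other 5 rises did not pass with the replicate block. Arrdc3 had 13.9 to 17.4 FPKM in CON and 23.4 to 32.7 FPKM in VCD (log2 change 0.83, adjusted p = 0.0241). Dusp16, a phosphatase of JNK and p38 kinases, had 25.6 to 40.7 FPKM and 55.1 to 63.9 FPKM (0.82, adjusted p = 0.0349). Dusp14 had 46.5 to 50.9 FPKM and 65.0 to 73.7 FPKM (0.52, adjusted p = 0.0210). For these 3 genes the groups did not overlap, and the adjusted p with the block was 0.0721. Lipg, an endothelial lipase, had 173.9 to 221.0 FPKM and 290.4 to 363.4 FPKM (0.68, adjusted p = 0.0429, with the block 0.0665). Tmco4 had 5.55 to 6.64 FPKM and 8.69 to 11.3 FPKM (0.63, adjusted p = 0.0387, with the block 0.0721). The call of Lipg was lost whichever library was left out. The Arrdc3 peak had the same coordinates in both lists, with 2.17 in CON and 2.04 in VCD, a difference of -0.13.

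The falls were led by oocyte genes. Gdf9 had 4.62, 5.38, 7.49 and 8.44 FPKM in CON and 1.05, 1.14, 1.24 and 1.44 FPKM in VCD. All VCD libraries lay far below the CON libraries, and Gdf9 fell by 1.73 on the log2 scale (SE 0.166, adjusted p = 0.00493). Ooep had 4.41, 4.44, 5.25 and 6.31 FPKM in CON and 0.542, 0.823, 1.23 and 1.38 FPKM in VCD, and fell by 1.62 (SE 0.162, adjusted p = 0.00493). H1f8 had 2.10, 2.28, 2.91 and 3.20 FPKM in CON and 0.419, 0.428, 0.480 and 0.635 FPKM in VCD, and fell by 1.27 (SE 0.126, adjusted p = 0.00493). These were 3 of the 6 oocyte genes with a stop codon peak that could be tested. Of all 14 tested oocyte genes 9 fell, beside 0.34% of all tested genes. Among the 9 were Zp1, Zp3, Padi6 and Npm2, which carried no stop codon peak. A low gene could reach the floor of 0.5 FPKM on the mean of all 8 libraries through its CON libraries alone, which favours falls. Amh, a product of growing follicles without such a peak, fell as well, from 48.3 to 74.6 FPKM in CON to 7.67 to 24.0 FPKM in VCD. It was the only called gene of 19 tested granulosa genes.

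Psrc1, a microtubule-binding spindle protein, had 4.25, 5.26, 5.94 and 8.43 FPKM in CON and 1.75, 1.83, 1.87 and 2.55 FPKM in VCD. The groups were apart, and Psrc1 fell by 1.19 (SE 0.175, adjusted p = 0.0308). Ccno, a cyclin-like protein of multiciliated cells and oocytes, had 2.30 to 3.95 FPKM and 0.196 to 0.788 FPKM and fell by 1.57 (adjusted p = 0.0126). Kif2c, a kinesin that takes apart microtubules at the kinetochore, had 3.63, 3.88, 4.08 and 5.91 FPKM in CON and 1.47, 1.80, 2.14 and 2.25 FPKM in VCD (log2 change -0.87, adjusted p = 0.0496, with the block 0.0664). H2ax had 31.8, 31.9, 32.8 and 37.7 FPKM in CON and 22.5, 23.5, 24.3 and 25.1 FPKM in VCD (-0.47, adjusted p = 0.0429, with the block 0.0904). Its peak stayed at 5.25 and 5.26 over the same coordinates. Kif2c was the only called gene among 12 tested kinetochore genes with a stop codon peak, and 11 of the 12 had lower values in VCD. So had 11 of 12 such repair genes, but 0 of 16 such immediate-early genes. The share of all host genes with lower values was not counted, and their median log2 change was -0.067.

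The remaining named falls did not pass with the replicate block. Ly6g6e had 16.4 to 26.2 FPKM in CON and 5.25 to 10.9 FPKM in VCD (-1.30, adjusted p = 0.0429, with the block 0.0787). Igsf9 had 5.55 to 8.46 FPKM and 1.70 to 3.76 FPKM (-1.19, adjusted p = 0.0349, with the block 0.0665). Kcnk2, a potassium channel, had 1.74 to 2.95 FPKM and 0.212 to 1.14 FPKM (-1.24, adjusted p = 0.0429, with the block 0.0653). In all 3 genes the groups did not overlap, and a stop codon peak was listed in both groups. Ca12, a carbonic anhydrase, had 2.65 to 4.43 FPKM and 0.750 to 1.59 FPKM (-1.11, adjusted p = 0.0475, with the block 0.0721), and its call was lost whichever library was left out. Oas1e had 1.31 to 3.02 FPKM and 0.330 to 0.671 FPKM (-1.12, adjusted p = 0.0355, with the block 0.0721), and its peak was listed in CON alone.

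**Figure D5:**
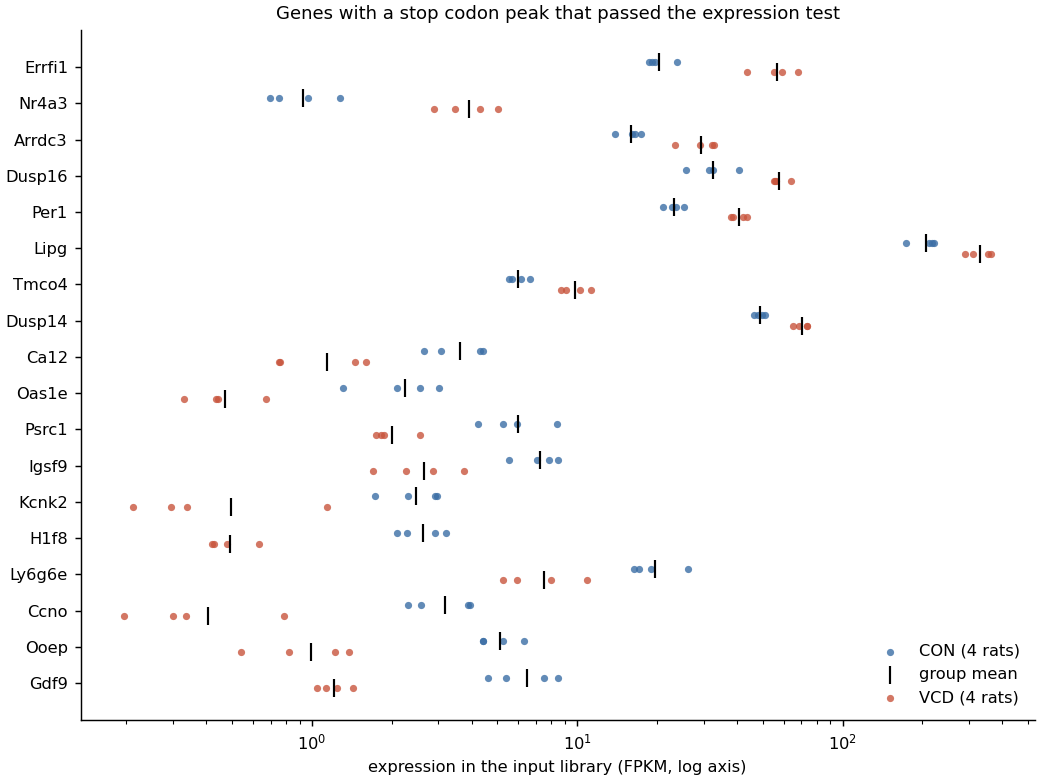
Each point is the FPKM of a gene with a stop codon peak in 1 input library (log axis), for 4 CON (blue) and 4 VCD (red) rats, with the group mean as a bar. The 8 genes that rose are at the top and the 10 largest falls below. In each of them the groups do not overlap, which is no separate support, as the genes were picked by a test on these values.

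Of the 35 genes, 29 had a stop codon peak in both lists. Only 6 kept the same coordinates, and their differences ran from -0.13 to 0.24. VCD was higher in 5 of them, beside 75.9% of all shared stop codon peaks. These 6 comprised 2 genes whose RNA rose and 4 whose RNA fell. Of the 35, 7 were listed in the authors' deposited table, all higher in VCD, 6 of them at an adjusted p under 0.05. Of all 2198 stop codon peaks listed there, 89.5% were higher in VCD and 1175 had an adjusted p under 0.05. The enrichment and the expression change share the input libraries, so no correlation between them is given.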

How the data were processed

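Members and lists were chosen with earlier results of these data known. Each peak list holds, per the file headers, the authors' log2 of IP over input and their p-values for every peak, from the pooled replicates of a group. No source used here gives the peak caller. The only build in the submitters' processing notes is GRCh38, although the gene identifiers are of rat. Tools in those notes include HISAT2 2.0.4, without a stated role. The differential table holds the authors' log2 enrichment per group, their difference and p-values, per the file headers. FPKM per gene and input library were deposited by the authors, with a fold ratio, its log2 and p- and q-values that were not used here. FPKM keep no read totals, so depth and counting error are unknown.

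Peaks were kept where the annotation was stop_codon. Starts in the files count from 0 and are printed plus 1. Width is end minus start on the genome. The planned main measure, summed exon blocks, could not be used because the lists hold no blocks. No genome of the files' build was used, so no sequence is shown. Shared peaks have the same chromosome, start, end and strand. A peak was counted as called past an absolute log2 difference of 1, since 1 list per group allows no test.

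For the 14978 genes that averaged 0.5 FPKM or more, log2(FPKM + 1) in the 8 input libraries was compared in limma 3.58.1 (trend, R 4.3.3), with Benjamini-Hochberg adjustment and a threshold of 0.05. Folds on this scale understate changes of low genes. Titles number the rats, so libraries were taken as separate animals. The test was checked on simulated data with known answers. A label called batch numbers the rats of each group from 1 to 4 without saying what it marks, and it served as a block in an alternative fit. As a check of that pairing, libraries with equal numbers deviated from their groups with correlations of -0.0103, -0.0851, 0.00684 and -0.0659 (pairs of unequal numbers, -0.219 to 0.266).

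Alternatives were stricter peak thresholds, a floor on host expression, other overlaps, centring, a smaller difference, another pseudocount (0.1), other filters, quantile and median scaling, the block, and leaving out each library. Named genes were the 7 of the series text, the 10 most enriched peaks per list, the 10 largest differences in each direction among shared peaks of genes at 1 FPKM or more, the 5 largest in each direction at an adjusted p under 0.05 in the authors' table, up to 4 list members with the highest CON value, the 10 largest called rises and falls, and the widest or doubled peaks. Other genes were chosen after their values were seen. Some genes that the rule names are not reported here. Symbols shared by several identifiers were read at the one with the highest mean. Analyses used Python 3.11.15, pandas 2.3.3, numpy 2.4.6 and scipy 1.17.1.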

Additional observations from a re-analysis of the deposited data

Results flagged for a closer look

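Among 25 genes whose values per library are given, 5 of 50 groups of 4 held a library far from the other 3, by the gap to the nearest library over the range of the group. Chance flags about 1 in 20 groups. Dusp16 was highest in VCD at 63.9 FPKM, with the others at 55.1 to 56.0 FPKM. Kcnk2 was highest in VCD at 1.14 FPKM, with the others at 0.212 to 0.338 FPKM. Psrc1 was highest in VCD at 2.55 FPKM, with the others at 1.75 to 1.87 FPKM. Klhdc4 was highest in CON at 6.05 FPKM, with the others listed at 0. H2ax was highest in CON at 37.7 FPKM, with the others at 31.8 to 32.8 FPKM.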

How the results depend on the processing

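Counts of stop codon peaks stayed within 1.5 times under each threshold tried. Limiting hosts to 1 FPKM gave median enrichments of 2.96 in CON and 3.05 in VCD. Limiting peaks to 1000 bases, an alternative chosen after seeing the data, gave a median width of 475 bases in both. Shared peaks numbered 6758 with an overlap of 1 base and 6064 with a reciprocal 50%. The median difference was then 0.078 with the reciprocal overlap, 0.079 with any overlap in a gene (also chosen after seeing the data) and 0.0049 after centring. Differences of at least 1 numbered 21 with the reciprocal overlap, 65 with any overlap and 1 for hosts at 1 FPKM, and those of at least 0.58 numbered 26. The authors' table held 1175 stop codon peaks at an adjusted p under 0.05 in place of 2197 at a p under 0.05.

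Calls among host genes numbered 22 without a filter, 2 at a mean of 5 FPKM and 14 with the replicate block, against 35. Over all genes they numbered 3 at 5 FPKM and 31 with the block, against 67. Leaving out 1 library gave 6 to 69 host calls and 12 to 133 over all genes. The count without a filter tests more genes, and that at 5 FPKM fewer; other causes were not tested. The block changed the call of no other gene whose limma p is printed than those given with a blocked value. Of 337 values of 25 named genes under 14 alternatives, 210 kept direction and call, 122 lost the call and 2 gained it. The other 3 changed sign, without a call in either case: Mettl3 had -0.0159 without CON 4 and -0.0081 without VCD 2, and Alkbh5 had -0.0196 without VCD 1. With 1 library left out, Mettl3 ran from -0.0159 to 0.0702 and Alkbh5 from -0.0196 to 0.0584. The alternative definition of width was not run, as the files hold no blocks. Read numbers behind a peak are unknown, so no limit from depth can be given.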
